A study of Mus musculus with 47 samples.

Results

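Keratin genes were followed in the livers of 47 hairless SKH:QS mice. The members were all transcripts of the processed table whose platform annotation gave a single gene symbol made of Krt and a number, without the keratin-associated proteins. This gave 52 keratin genes, with 1 probeset each, of 9815 transcripts tested. The table holds part of the array's genes (9 of 25 listed hepatocyte genes, for example), and other keratins were not analysed here. The 4 keratins of hepatocytes and bile ducts (Krt8, Krt18, Krt7 and Krt19) were read apart from the other 48, most of which are known from skin and hair. All mice were female, albino and immune-competent, entered at 8 weeks of age, and were treated weekly, with 30 treatments over 36 weeks. The 8 groups were Organic + UVR and Organic-UVR (a product with organic UVR filters only), TiO2 + UVR and TiO2-UVR (TiO2 nanoparticles mixed with organic filters), ZnO + UVR and ZnO-UVR (ZnO nanoparticles), Control + UVR and Control-UVR (no sunscreen). UVR was given at 29 kJ/m2 per treatment, and the controls also wore the collar and were washed. Each group had 6 arrays, 1 per mouse, except ZnO + UVR with 5. The sunscreens were commercial products, so the filters and the other ingredients of a product cannot be told apart. The study's methods describe a single cage for each treatment group, while the labels give individual housing. If each group was 1 cage, cage and group cannot be told apart in any comparison below.

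Keratins are the intermediate filament proteins of epithelial cells. A filament needs a type I and a type II partner: hepatocytes pair type II KRT8 with type I KRT18, bile duct cells add KRT7 and KRT19, and epidermis and hair use pairs such as KRT5 with KRT14 or KRT1 with KRT10. In liver the filaments give hepatocytes mechanical strength, and they are known to collect in aggregates in some chronic liver diseases. All 52 symbols matched RefSeq through their Entrez number, with 27 genes on chromosome 11, the type I cluster, and 25 on chromosome 15, the type II cluster. Krt18 is the type I gene that lies on chromosome 15, and RefSeq places 0 protein-coding genes between it and Krt8.

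The promoters of the 3 keratins whose liver levels are described at greatest length below are shown first, from 250 bases before the RefSeq start to 30 bases after it (GRCm38.p6), because the pair Krt8 and Krt18 moved together and Krt7 did not follow it. Capitals mark matches to 4 motifs, each searched on both strands. The TATA motif was spelled TATAAA. The GC box was spelled GGGCGG. The CCAAT motif was searched by its own letters. The AP-1 motif was spelled TGANTCA, with any base at N.
Krt8, chr15:102004313-102004592, minus strand: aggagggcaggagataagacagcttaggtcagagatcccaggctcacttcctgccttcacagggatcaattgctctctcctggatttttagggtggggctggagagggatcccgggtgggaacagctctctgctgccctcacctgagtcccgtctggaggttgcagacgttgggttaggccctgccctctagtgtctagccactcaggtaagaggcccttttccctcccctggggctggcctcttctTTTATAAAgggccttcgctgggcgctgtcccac
Krt18, chr15:102027966-102028245, plus strand: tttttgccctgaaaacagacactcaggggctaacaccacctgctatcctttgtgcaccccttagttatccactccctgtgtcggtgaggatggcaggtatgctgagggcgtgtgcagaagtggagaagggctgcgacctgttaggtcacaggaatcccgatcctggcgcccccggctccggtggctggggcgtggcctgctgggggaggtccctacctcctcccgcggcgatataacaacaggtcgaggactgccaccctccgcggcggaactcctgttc
Krt7, chr15:101412153-101412432, plus strand: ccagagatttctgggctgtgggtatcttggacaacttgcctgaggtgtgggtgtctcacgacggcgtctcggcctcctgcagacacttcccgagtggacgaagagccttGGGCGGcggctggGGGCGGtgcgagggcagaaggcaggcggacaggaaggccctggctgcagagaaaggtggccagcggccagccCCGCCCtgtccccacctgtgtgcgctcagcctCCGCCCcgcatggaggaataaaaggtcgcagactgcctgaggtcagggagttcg
The GC content was 58.6% for Krt8, 61.4% for Krt18 and 65.7% for Krt7, against a median of 52.5% over 32851 mouse promoters of the same length. The Krt7 window held 4 GC boxes. The Krt8 window held TATAAA on each strand, the 2 matches overlapping each other at the annotated start, and the Krt18 window held none of these letters. Of 36 keratin genes with a promoter in the table, 52.8% held TATAAA, against 13.1% of all promoters, while 5.56% held GGGCGG, against 34.7%. CCAAT was in 38.9% of the keratin promoters against 36.1% of all, and TGANTCA in 2.78% against 7.46%. The 30 bases after the start were added after the 250 bases before it had been searched. In those 250 bases alone TATAAA was in 47.2% of keratin promoters against 12.4% of all, and the Krt8 window then held no match.

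The values are log2 signals after robust multi-array averaging (RMA), which corrects background and normalises the arrays to each other. Probes differ in brightness, so a level is given as its rank, beside 215 probesets of olfactory receptors, genes taken here as silent in liver. Krt8 averaged 9.22 and Krt18 9.21 on the log2 scale over the 47 arrays, brighter than 93.8% and 93.7% of all transcripts. Krt7 averaged 4.65 and Krt19 4.32, both below the olfactory 95th percentile of 5.32, so neither bile duct keratin stood clear of the silent genes in whole liver. All 9 measured members of a hepatocyte list lay above that percentile, led by Apoa2, an apolipoprotein of HDL, at 13.3. Krt8 and Krt18 are themselves among these 9. Of all 9815 transcripts 4724 lay above it. So did 3 of 11 bile duct, 3 of 3 leukocyte and 5 of 6 stellate and fibroblast genes. Of skin and hair follicle genes 7 of 13 did, and of pancreas and gut genes 1 of 2. Passing the percentile therefore does not mark hepatocytes. In whole tissue, fewer cells of a type and less RNA per cell cannot be told apart.

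The other 48 keratins had a median level of 4.38, between 2.69 for Krt6b and 7.15 for Krt33b, against 3.56 for the olfactory receptors and 5.24 for all transcripts. Only 5 of the 48 lay above the olfactory 95th percentile. They were Krt33b, a hair cortex keratin at 7.15, Krt12, the corneal keratin at 5.61, Krt80, a keratin of differentiating epithelia at 5.61, Krt87, a type II hair keratin at 5.60, and Krt88 at 5.50. The basal and suprabasal keratins of epidermis were below it, with Krt14 at 5.08, Krt10 at 5.03, Krt5 at 4.49 and Krt1 at 4.22. The 9 keratins of the hair follicle root sheath lay between 3.30 and 4.95, all below it, and the 13 of the hair and nail shaft between 3.11 and 7.15, with 2 above it. Related keratins (Krt6a and Krt6b, Krt14, Krt16, Krt17 and Krt42, Krt31, Krt33a, Krt33b and Krt34, Krt86 and Krt87) have near-identical stretches, so their separate signals are uncertain.

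**Figure D1:**
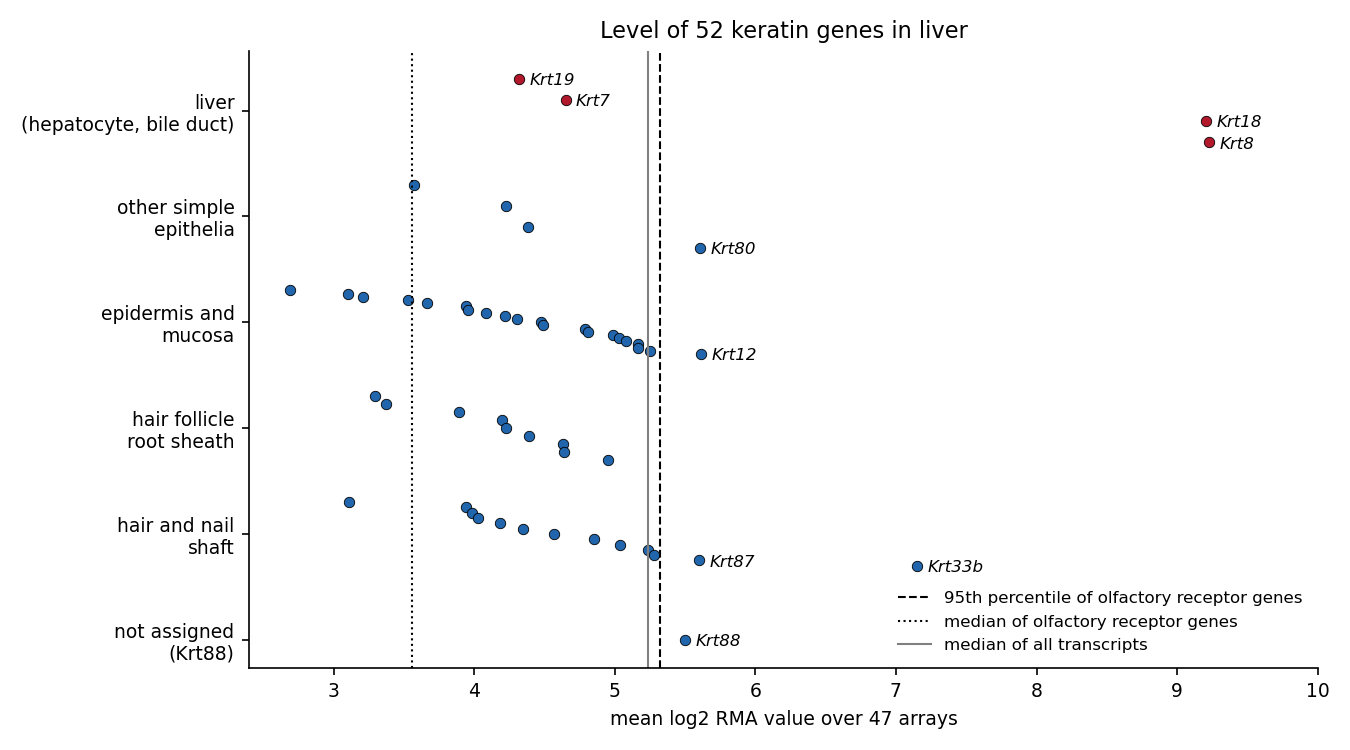
Mean log2 RMA value of each of 52 keratin genes over 47 liver arrays, 1 point per gene, by class (liver keratins in red, others in blue), with lines at the median (3.56) and 95th percentile (5.32) of olfactory receptor probesets and at the median of all transcripts (5.24). Krt8 and Krt18 stand above 9, and 5 keratins outside the liver class pass the 95th percentile.

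Krt8 and Krt18, the hepatocyte pair, averaged below Control-UVR in 6 of the 7 other groups, ZnO-UVR and Control + UVR included, with ZnO + UVR as the exception. The largest distance was in Organic-UVR. Krt18 in Organic-UVR livers ran from 8.05 to 9.89 with a median of 8.81, against 9.08 to 9.90 with a median of 9.46 in Control-UVR. Of the 6 Organic-UVR livers 5 lay below the lowest Control-UVR liver, and replicate 4 lay within the Control-UVR range. Krt18 was lower in Organic-UVR by a log2 difference of -0.71 (SE 0.21), a fold of 0.612 (limma, adjusted p = 0.0782 over all transcripts, called at a false discovery rate of 0.1). Krt8 in Organic-UVR livers ran from 8.30 to 9.56 with a median of 8.90, against 9.07 to 9.91 with a median of 9.52 in Control-UVR. Its difference was -0.55 (SE 0.19, 95% interval -0.93 to -0.17, adjusted p = 0.114) and was not called. In this comparison 2 of the 52 keratins were called, Krt18 and Krt7, beside 3.27% of all transcripts.

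**Figure D2:**
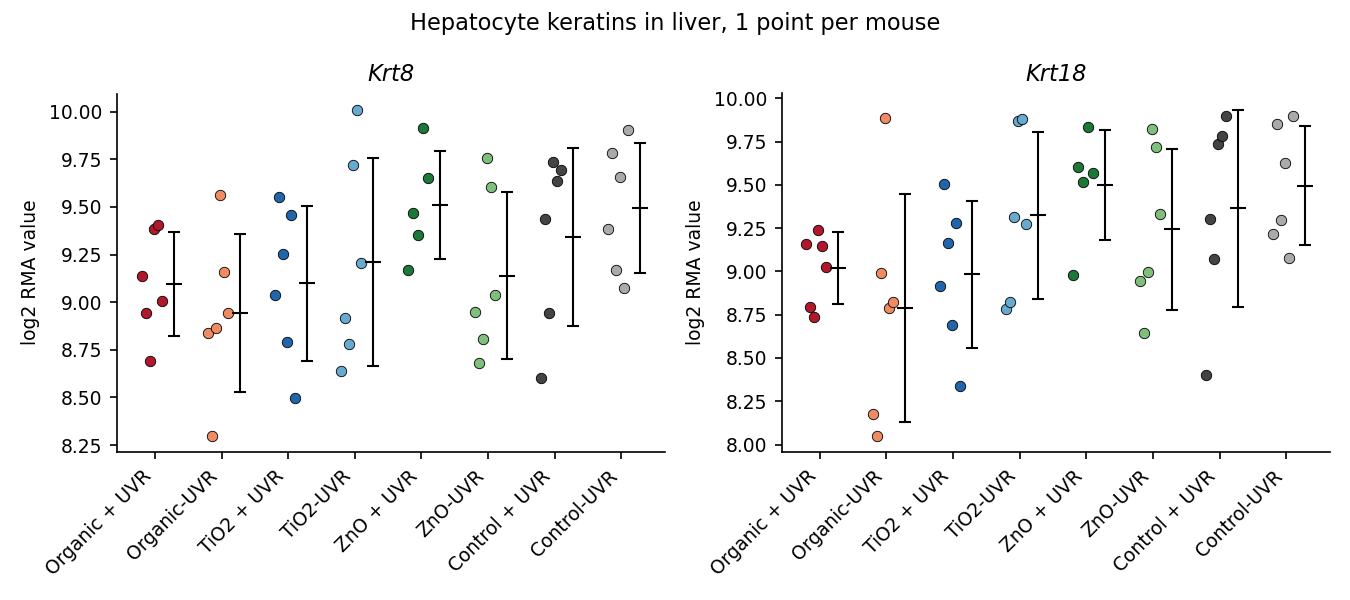
Log2 RMA value of Krt8 (left) and Krt18 (right) in each liver, 1 point per mouse, by group, with the group mean and SD at the right of each set (n = 6, ZnO + UVR n = 5). Organic-UVR lies lowest on average for both genes, and every group overlaps Control-UVR.

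The call of Krt18 in Organic-UVR rested on several choices and arrays. It was lost without the replicate number as a block (adjusted p = 0.178), and it was lost without any one of Control-UVR replicates 1, 2, 3 and 6 or Organic-UVR replicates 1, 2 and 6, where adjusted p values over the 12 arrays left out in turn ran from 0.032 to 0.268. The difference was -1.05 in replicate numbers 1 to 3 and -0.37 in numbers 4 to 6. Organic-UVR replicate 1 also had the flattest array of all, with a slope of 0.772 when regressed on the average array. With the array slope in the fit, the difference was -0.58 (adjusted p = 0.301), and after quantile normalization -0.53 (adjusted p = 0.241).

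In the other groups the pair gave no call. Krt18 in Organic + UVR livers ran from 8.74 to 9.24 with a median of 9.09, a difference of -0.48 from Control-UVR (SE 0.21, adjusted p = 0.245), and in TiO2 + UVR livers from 8.34 to 9.50 with a median of 9.04, a difference of -0.51 (SE 0.21, adjusted p = 0.395). Krt8 differed by -0.40 in both groups (SE 0.19 in each, adjusted p = 0.265 in Organic + UVR and 0.457 in TiO2 + UVR). In Control + UVR the differences were -0.15 for Krt8 and -0.13 for Krt18, in TiO2-UVR -0.28 and -0.17, and in ZnO-UVR -0.36 and -0.25, while both were at 0.02 in ZnO + UVR, with adjusted p values of 0.732 or more. These 7 comparisons share the Control-UVR arrays. The order of the group means of Krt18 was ZnO + UVR (9.50), Control-UVR (9.50), Control + UVR (9.37), TiO2-UVR (9.32), ZnO-UVR (9.24), Organic + UVR (9.02), TiO2 + UVR (8.98) and Organic-UVR (8.79), and no 2 neighbours in that order were further apart than the larger of their 2 SDs.

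Set over all arrays, the 4 groups given TiO2 or Organic product against the 4 groups given ZnO or nothing, Krt18 was lower, with a difference of -0.38 (SE 0.11, adjusted p = 0.0545), and Krt8 likewise at -0.28 (SE 0.10, adjusted p = 0.0958), and both were called. The hair cortex keratin Krt86, whose level of 3.11 is below the olfactory 95th percentile, was the third call and was higher by 0.27 (SE 0.08, adjusted p = 0.0437). Thus 3 of 52 keratins were called, beside 4.94% of all transcripts, and 12 had an unadjusted p under 0.05, beside 19.6%. The Krt18 call held without each of the 47 arrays in turn (adjusted p 0.0206 to 0.0942), and the Krt8 call held in 15 of 47. Both calls were lost without the block (adjusted p = 0.141 for Krt18 and 0.223 for Krt8), with the array slope in the fit (0.177 and 0.262), after quantile normalization (0.183 and 0.335) and in replicate numbers 1 to 3 (0.367 and 0.379). Krt86 in Organic + UVR livers had a median of 3.04, in Organic-UVR 3.34, in TiO2 + UVR 3.21 and in TiO2-UVR 3.13, against 3.00 in ZnO + UVR, 3.00 in ZnO-UVR, 2.92 in Control + UVR and 2.89 in Control-UVR, and single livers overlapped between all groups. Its call was lost with the array slope in the fit (adjusted p = 0.200), with array weights and in replicate numbers 1 to 3 and 4 to 6. The highest adjusted p over the settings was 0.316.

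Krt8 and Krt18 kept step from liver to liver. After the means of the groups and of the replicate numbers were removed, Pearson's r was 0.914 and Spearman's rho 0.892 over the 47 arrays (two-sided permutation test with 100000 permutations, p = 1e-05, the smallest these can give, 6e-05 after Benjamini-Hochberg adjustment over 6 pairs). Without the 2 arrays farthest from the median of Krt8 r was 0.899, and with the array slope removed it was 0.916. On the log2 values with no means removed, r within the groups of 6 livers ran from 0.881 to 0.994. ZnO + UVR, with 5 livers, was left out of that range. Within replicate numbers r of the same values ran from 0.737 to 0.989. The SD over the arrays was 0.421 for Krt8 and 0.486 for Krt18, but 0.195 for their difference. The group mean of Krt8 minus Krt18 lay between -0.11 in TiO2-UVR and 0.16 in Organic-UVR. The other 5 pairs of liver keratins did not pass the threshold, and r between the bile duct keratins Krt7 and Krt19 was 0.132 (permutation p = 0.377, rho 0.141).

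**Figure D3:**
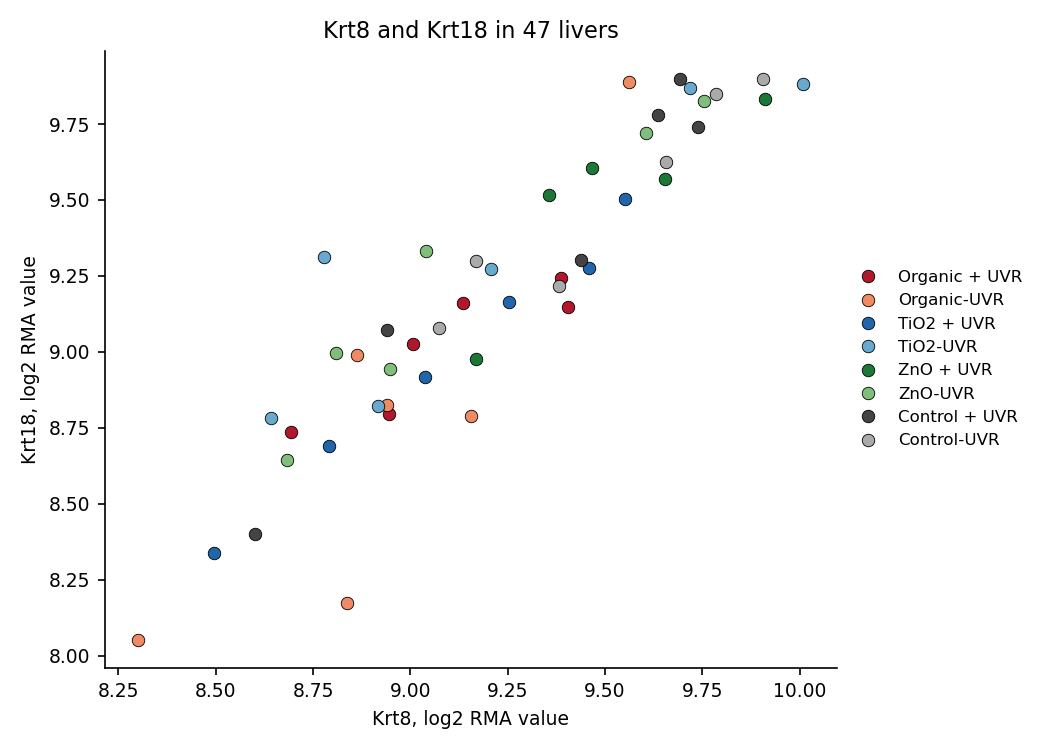
Krt8 (x axis) against Krt18 (y axis), log2 RMA values, 1 point per liver, coloured by group, 47 livers. The points lie along a line in every group, and 2 Organic-UVR livers have the lowest Krt18 values (8.05 and 8.17).

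The level of the pair differed between the replicate numbers of the labels. The arrays were processed in batches with 1 of each group, and which batch a number belongs to is not given in the sources used here. Krt8 averaged 9.57 in livers numbered 4 and 9.50 in those numbered 5, and 8.97 in those numbered 1 (n = 8 each), and Krt18 averaged 9.59, 9.41 and 8.82 in the same livers. Each number holds 1 liver of each group, except number 6, which lacks ZnO + UVR. Again with group and replicate means removed, the transcripts most like Krt8 beside Krt18 over the 47 arrays were Cryzl2 (r 0.726) and Xaf1 (r 0.715). Those most like Krt18, after Krt8, were Lasp1 (r 0.761) and Srebf2 (r 0.729). For Krt7 they were Pirt (0.572), Drd3 (0.558) and Slc47a2 (0.544). For Krt19 they were Blk (0.597), Msmb (0.587) and BC018473 (0.575). All of these partners of Krt7 and Krt19 except Pirt had levels below the median of all transcripts. The partners named here for the 4 liver keratins are the highest r picked from all transcripts with 1 symbol. Their r, apart from that of Krt8 with Krt18, was not tested.

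Krt7, a type II keratin of bile duct cells, was higher in Organic-UVR than in Control-UVR and had the smallest p of all keratins. Krt7 in Organic-UVR livers was 5.41, 4.60, 4.80, 5.15, 5.11 and 4.46, against 4.59, 4.19, 4.33, 4.65, 4.17 and 4.22 in Control-UVR. Of the 6 Organic-UVR livers 4 lay above the highest Control-UVR liver, and 2 lay within its range. The difference was 0.57 on the log2 scale (SE 0.11, fold 1.48, adjusted p = 0.00641), at a level below the olfactory 95th percentile. The call held without each of the 12 arrays in turn (adjusted p 0.00667 to 0.0314) and was lost in the fit of these 2 groups alone (adjusted p = 0.299), in replicate numbers 1 to 3 (0.134) and in numbers 4 to 6 (0.355). In Organic-UVR against Control-UVR 3 of 215 olfactory receptors were called higher and 0 lower, and their largest difference was 0.77. Of 5091 transcripts below the olfactory 95th percentile, 41 were called higher there and 10 lower. Over the 8 groups Krt7 was also the 1 keratin called by limma's moderated F test (adjusted p = 0.0513, beside 1.93% of all transcripts).

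In Organic + UVR livers Krt7 was 4.76, 4.88, 4.65, 4.71, 4.98 and 4.39, and all but the last were above the highest Control-UVR liver. The difference was 0.37 (SE 0.11, adjusted p = 0.095), called as the 1 keratin of 52 beside 1.65% of all transcripts, and lost without any one of Control-UVR replicates 1 to 6 or Organic + UVR replicates 2 to 5 (adjusted p up to 0.259). It was also lost without the block (adjusted p = 0.176), in the fit of these 2 groups alone (0.207), with the array slope in the fit (0.268), after quantile normalization (0.297), in replicate numbers 1 to 3 (0.663) and in numbers 4 to 6 (0.361). In TiO2 + UVR the difference was also 0.37 (SE 0.11, adjusted p = 0.157), in ZnO-UVR 0.31 (adjusted p = 1), in Control + UVR 0.30 (adjusted p = 0.286), in ZnO + UVR 0.22 (adjusted p = 1) and in TiO2-UVR 0.16 (adjusted p = 0.968). All 7 differences of Krt7 from Control-UVR were above 0, and they share the Control-UVR arrays, of which 4 gave the 4 lowest Krt7 values of the series. The interaction of Organic with UVR was -0.49 (SE 0.16, limma adjusted p = 0.598).

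Krt19, the type I keratin of bile duct cells, was not called in any comparison. It averaged 4.16 in Organic + UVR, 4.40 in Organic-UVR, 4.45 in TiO2 + UVR, 4.41 in TiO2-UVR, 4.30 in ZnO + UVR, 4.26 in ZnO-UVR, 4.30 in Control + UVR and 4.26 in Control-UVR, with SDs of 0.138 to 0.241. Differences from Control-UVR lay between -0.10 in Organic + UVR and 0.19 in TiO2 + UVR, with an SE of 0.11 or 0.12 each. The 2 bile duct keratins gave values on either side of 0 in Organic + UVR, with 0.37 for Krt7 and -0.10 for Krt19.

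**Figure D4:**
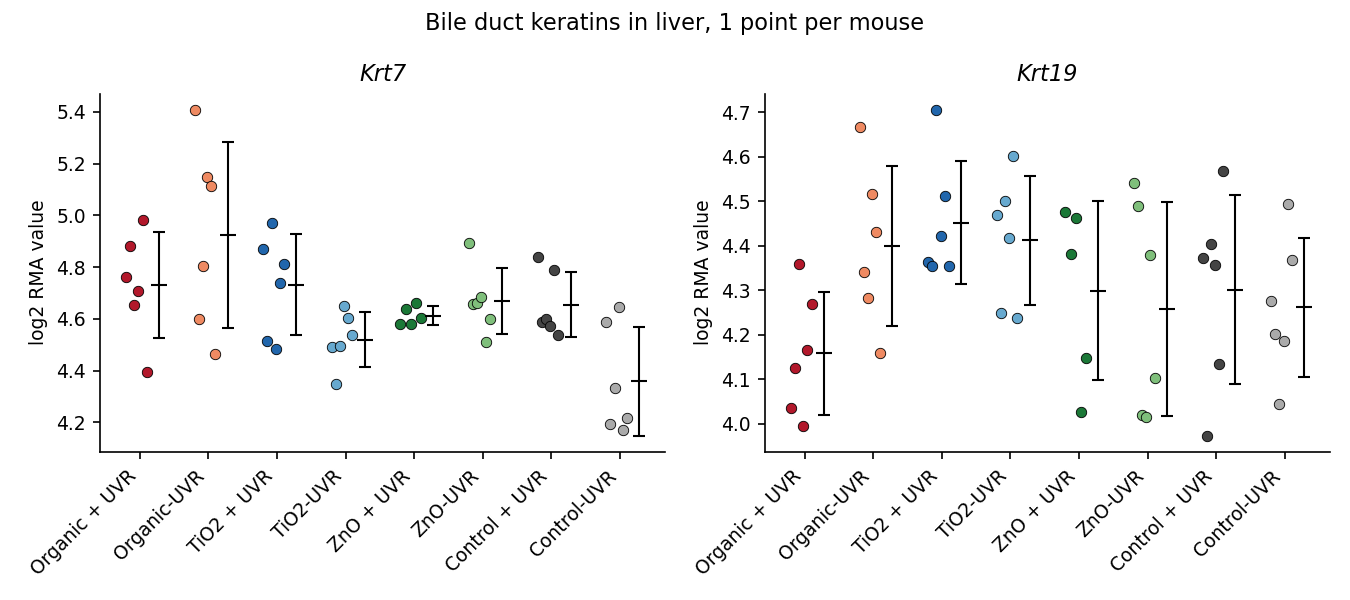
Log2 RMA value of Krt7 (left) and Krt19 (right) in each liver, 1 point per mouse, by group, with the group mean and SD (n = 6, ZnO + UVR n = 5). Krt7 lies lowest in Control-UVR and highest in Organic-UVR, and Krt19 overlaps between all groups.

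Bile duct markers were read as a list of 28 genes, which includes Krt7 and Krt19. Of these 11 were measured, Krt7 and Krt19 among them, and 3 lay above the olfactory 95th percentile. In Organic-UVR Krt7 was the 1 called, beside 3.27% of all transcripts. The median difference of the 11 was -0.05, against 0.03 over all transcripts. In Organic + UVR Krt7 was called higher and Bicc1, an RNA-binding protein of the duct epithelium, lower (-0.39, SE 0.11, adjusted p = 0.0847). The list median was -0.18, and 1.65% of all transcripts were called. In the contrast of products with organic filters, 4.94% of all transcripts were called. There Sox9, the transcription factor of duct cells, was lower (-0.24, adjusted p = 0.0834). The tight junction gene Cldn7 was higher (0.20, adjusted p = 0.0737), at a level of 4.17, below the olfactory 95th percentile. Of 5091 transcripts below that percentile, 100 were called higher in this contrast and 12 lower. The summed linear signal of the list, most of it from Atp1b1, a sodium pump subunit, ran from 783.4 to 1506 in Organic-UVR livers and from 993.1 to 1350 in Control-UVR livers. The part of bile duct cells in the Krt7 result was not tested.

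Among 48 keratins outside the liver class, none was called in any of the 7 comparisons with Control-UVR by limma, and 1, Krt86, in the contrast of products. At an unadjusted p under 0.05 there were 3 of the 48 in Organic + UVR (17.1% of all transcripts), 8 in Organic-UVR (19.1%), 6 in TiO2 + UVR (10.2%), 3 in TiO2-UVR (3.86%), and 2 each in ZnO + UVR (2.81%), ZnO-UVR (1.52%) and Control + UVR (12.8%). Most of the differences were small and above 0. In Organic-UVR 41 of 48 were above 0, with a median of 0.13, and of the olfactory receptors 87.9% were, with a median of 0.15, against 55.4% and 0.03 over all transcripts. In Organic + UVR 42 of 48 were above 0, with a median of 0.10 and an olfactory median of 0.14. In TiO2 + UVR 41 of 48 were, with a median of 0.11 and an olfactory median of 0.06. In Control + UVR 38 of 48 were, with medians of 0.13 and 0.14, and in TiO2-UVR 33 of 48, with medians of 0.06 and 0.10. In ZnO + UVR 27 of 48 were above 0, with a median of 0.04 and an olfactory median of 0.01. The slope of the arrays averaged 0.978 in Organic + UVR, 0.973 in Organic-UVR, 0.996 in TiO2 + UVR and 0.984 in Control + UVR. It averaged 1.00 in TiO2-UVR, 1.02 in ZnO + UVR and in ZnO-UVR, and 1.03 in Control-UVR. A flatter array reads dim probesets higher. Without replicate 1 the Organic-UVR slope averaged 1.01, from 0.989 to 1.04. By an exact two-sided permutation test the slope differed from Control-UVR in Control + UVR (p = 0.0108) and TiO2 + UVR (p = 0.00866), both 0.0378 after adjustment over 7 groups, but not in Organic + UVR (p = 0.0498, adjusted 0.116) or Organic-UVR (p = 0.0887, adjusted 0.155). With the slope as a covariate, 27 of the 48 keratins were above 0 in Organic-UVR, with a median of 0.02, and 28 of 48 in Organic + UVR, also with a median of 0.02. The olfactory medians were then -0.04 and -0.03. In the same fit 31 of 48 were above 0 in TiO2 + UVR, with a median of 0.05 and an olfactory median of -0.04. In Control + UVR 33 of 48 were, with medians of 0.04 and -0.01. In TiO2-UVR, ZnO + UVR and ZnO-UVR 26, 26 and 25 of 48 were. The part of the slope in the keratin differences was not tested. Keratin-associated proteins, 22 measured, likewise gave 0 calls in the 7 comparisons, with 5 at an unadjusted p under 0.05 in Organic-UVR.

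**Figure D5:**
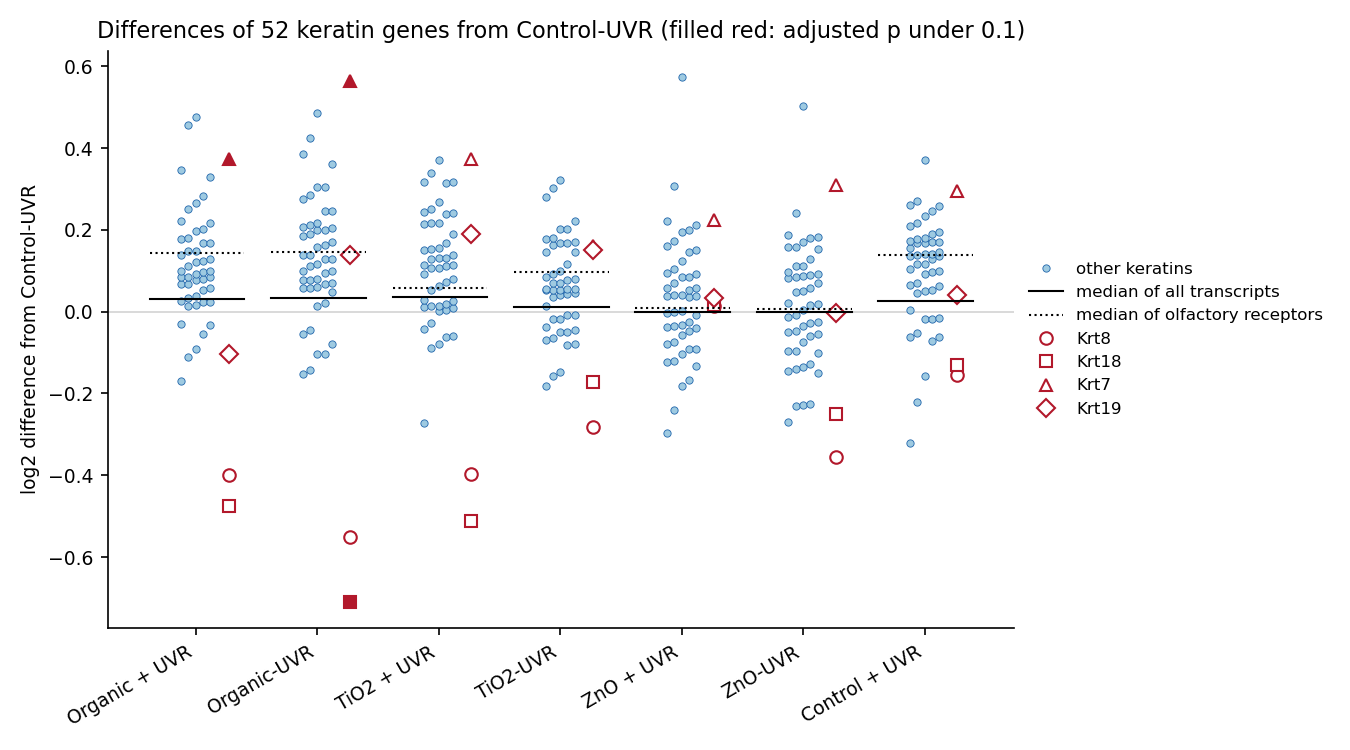
Log2 difference from Control-UVR of 52 keratins in 7 groups, 1 point per gene (blue, keratins outside the liver class, red, the 4 liver keratins, filled where adjusted p was under 0.1), with lines at the medians of all transcripts and of olfactory receptors. Krt18 and Krt7 in Organic-UVR and Krt7 in Organic + UVR are filled.

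Keratins outside the liver class that gave 1 of the 3 smallest p values in a comparison with Control-UVR were read singly, and none was called. Krt6a, a keratin of nail bed and mucosa that is induced in wounded epidermis, ran from 5.24 to 5.91 in ZnO + UVR livers with a median of 5.44, and from 4.61 to 5.26 in Control-UVR with a median of 5.00. The difference was 0.57 (SE 0.16, limma adjusted p = 1, with 0 transcripts of 9815 called). In ZnO-UVR Krt6a differed by 0.50 (adjusted p = 1), in Organic + UVR by 0.48 (adjusted p = 0.121) and in Control + UVR by 0.37 (adjusted p = 0.308). Averaged over products, UVR gave 0.23 (SE 0.08, adjusted p = 0.69). Krt88, a gene of the chromosome 15 cluster, differed by 0.46 in Organic + UVR (SE 0.14, adjusted p = 0.114), 0.43 in Organic-UVR (0.111), 0.37 in TiO2 + UVR (0.34) and 0.31 in ZnO + UVR (adjusted p = 1). It ran from 5.32 to 6.07 in Organic + UVR livers and from 5.38 to 6.19 in Organic-UVR livers, against 5.07 to 5.52 in Control-UVR livers, so the groups overlapped.

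Krt75, a keratin of the follicle's companion layer, ran from 4.98 to 5.25 in TiO2 + UVR livers with a median of 5.12, above all 6 Control-UVR livers, which ran from 4.50 to 4.96 with a median of 4.79. The difference was 0.34 (SE 0.10, adjusted p = 0.132), beside 0.693% of all transcripts called in that comparison. Krt71, an inner root sheath keratin, differed by 0.32 in TiO2-UVR (SE 0.11, adjusted p = 0.968), Krt74, also of that sheath, by 0.28 and Krt17, a follicle and wound keratin, by 0.30. Krt13, a keratin of mucosal surfaces, differed by 0.26 in Control + UVR (adjusted p = 0.313) and 0.24 in ZnO-UVR (adjusted p = 1). Krt78 differed by 0.30 in Organic-UVR (SE 0.10, adjusted p = 0.102), from 4.78 to 5.34 in those livers against 4.53 to 4.82 in Control-UVR livers.

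The brightest keratin of the 48, Krt33b, had means between 7.03 in Organic + UVR and 7.23 in TiO2 + UVR and Control + UVR, against 7.13 in Control-UVR. The group means of Krt12 lay between 5.75 in Control + UVR and 5.53 in Control-UVR, those of Krt80 between 5.71 in Organic-UVR and 5.44 in ZnO-UVR, and those of Krt87 between 5.71 in Organic-UVR and 5.51 in Control-UVR. None of these 4 genes was called in any comparison.

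UVR itself called no keratin. Limma gave 0 of 52 in Control + UVR against Control-UVR, where 0.0509% of all transcripts were called. There 3 keratins had an unadjusted p under 0.05, beside 12.8% of all transcripts. Limma gave 0 in ZnO + UVR against ZnO-UVR, where also 0 had an unadjusted p under 0.05 (2.19% of all transcripts). It gave 0 in TiO2 + UVR against TiO2-UVR (2 at that level, 6.65% of all). It also gave 0 in Organic + UVR against Organic-UVR (3, 3.39% of all) and 0 averaged over products (4, 6.8% of all). In those averages Krt8 differed by 0.06 (95% interval -0.13 to 0.25), Krt18 by 0.01 (-0.21 to 0.23), Krt7 by 0.06 (-0.06 to 0.17) and Krt19 by -0.03 (-0.15 to 0.08). The 3 interactions of product and UVR called 0 of 52 keratins each, with 2, 2 and 4 at an unadjusted p under 0.05 for ZnO, TiO2 and Organic (3.79%, 8.49% and 7.43% of all transcripts). The sunscreens under UVR against Control + UVR called none either, with 3 at an unadjusted p under 0.05 for ZnO, 5 for TiO2 and 2 for Organic (5.9%, 8.46% and 7.25% of all). Of all transcripts, those called were 0% in ZnO + UVR against ZnO-UVR, 0.652% in TiO2 + UVR against TiO2-UVR and 0% in Organic + UVR against Organic-UVR, 0% averaged over products, and 0%, 0.173% and 0% in the interactions of ZnO, TiO2 and Organic. Against Control + UVR they were 0% for ZnO, 0.703% for TiO2 and 0.0611% for Organic, and against Control-UVR 0% in ZnO + UVR, ZnO-UVR and TiO2-UVR.

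The partners of the filaments were read from lists in Organic-UVR against Control-UVR, where 3.27% of all transcripts were called and their median was 0.03. Of 10 measured genes that link keratins to junctions, Pkp2, a plaque protein of desmosomes, was lower in Organic-UVR (-0.47, SE 0.14, adjusted p = 0.0818), and the list median was 0.05. Dsp, desmoplakin, which ties filaments to desmosomes, differed by -0.50 (adjusted p = 0.122), beside -0.51 in Control + UVR (adjusted p = 0.265) and -0.46 in Organic + UVR (adjusted p = 0.177). Of 6 genes of keratin aggregates and stress, none was called in Organic-UVR, all 6 had a difference below 0 and their median was -0.22. Sqstm1, the ubiquitin-binding protein p62 of such aggregates, differed by -0.55 there (SE 0.21, adjusted p = 0.147) and was called lower in the contrast of products (-0.31, adjusted p = 0.0976). Of 9 hepatocyte genes, Krt18 and Hal, histidine ammonia-lyase, were lower in Organic-UVR (Hal -0.72, SE 0.15, adjusted p = 0.0126). All 9 had a difference below 0, with a median of -0.17, from the -0.72 of Hal to -0.01 for Apoa2. These 9, which include Krt8 and Krt18, and the 6 genes of aggregates and stress all lay above the olfactory 95th percentile. Of all transcripts 55.4% had a difference above 0, and of those below that percentile 76.9%, so brighter transcripts were less often above 0. Of 8 other intermediate filament and linker genes, Syne1, a nuclear envelope spectrin-repeat gene, was lower (-0.45, adjusted p = 0.0818). Of 13 markers of skin and hair follicle, Trp63, the basal cell transcription factor, was higher in Organic-UVR (0.35, adjusted p = 0.0805), while Perp and Gjb2, which liver also expresses, were lower (-0.40 and -0.46, adjusted p = 0.0782 and 0.0451). Of the 13, 7 lay above the olfactory 95th percentile, and Trp63, with a level of 4.6, lay below it. In all, 11 of the 13 had a difference above 0, with a median of 0.15. Of the olfactory receptors 87.9% did, also with a median of 0.15. The skin list's summed linear signal ran from 1079 to 1714 in Organic-UVR livers and from 1633 to 1869 in Control-UVR livers. Without Gjb2 and Perp, its 2 brightest members, the sum ran from 392.4 to 531.9 in Organic-UVR livers and from 375.8 to 438.8 in Control-UVR livers.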

How the data were processed

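Total RNA of 47 livers was labelled and hybridised to Affymetrix Mouse Gene 1.0 ST arrays, 1 per mouse. The authors normalised the arrays by RMA and deposited log2 values, and the submitters' processing notes name RMA without a version. The study's methods state that batch effects were removed, without saying whether the deposited values are those before or after. Of 16383 probesets 6568 were controls and left out. The other 9815 were named through GEO's platform annotation, where 7450 had 1 gene symbol, 511 several and 1854 none. Where a gene had several probesets the brightest was taken, and each keratin had 1.

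Group differences were fitted with limma 3.58.1 in R 4.3.3, with a term for each of 8 groups and the labels' replicate number as blocking factor, which no source ties to a processing batch, and p values were adjusted by the Benjamini-Hochberg method over all 9815 transcripts in each of 18 comparisons. A transcript was called at an adjusted p under 0.1, the 10 percent rate of the study's methods. The script was tested on simulated data. The number of arrays limits the precision. The array slope is the slope of an array on the mean of all arrays. Genes named singly were the 4 liver keratins, called keratins, the 3 smallest p values in each comparison with Control-UVR, the 5 brightest keratins outside the liver class, keratins with an array that stands apart, called list members and the 3 transcripts most correlated with each liver keratin. A few further keratins and list members (Krt1, Krt5, Krt10, Krt14, Dsp, Apoa2 and Atp1b1) were chosen after their values were seen. The members, lists and contrasts were chosen with earlier results of these data known. Promoters came from RefSeq (GRCm38.p6). The build behind the array annotation is not given in the sources used here, so no coordinates were taken from it. Alternatives are in the closing section.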

Additional observations from a re-analysis of the deposited data

Results flagged for a closer look

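Of 416 sets of 1 keratin in 1 group, 44 had a lowest or highest liver whose gap to its nearest neighbour passed Dixon's 95% value for the group size. Chance would give about 20.8 at 1 in 20, and dim genes of 1 array are not independent. The 44 came from 23 arrays. Values below are log2 RMA values.

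In Organic + UVR, replicate 4 stood apart for Krt33b (6.11, below 7.05), Krt34 (5.93, above 5.02), Krt10 (5.90, above 4.97), Krt28 (3.97, above 3.42) and Krt86 (3.87, above 3.14). In Organic-UVR, replicate 1 stood apart for Krt33b (8.21, above 7.13), Krt12 (6.32, above 5.58), Krt72 (5.59, above 4.84), Krt25 (5.26, above 4.44), Krt73 (5.00, above 4.18), Krt24 (5.23, above 4.02), Krt4 (4.12, above 3.62) and Krt9 (4.12, above 3.25). Replicate 4 did so for Krt222 (4.66, above 4.33).

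In TiO2 + UVR, replicate 4 stood apart for Krt87 (4.79, below 5.61), Krt90 (5.51, above 5.10) and Krt5 (5.17, above 4.67). Replicate 3 did so for Krt15 (4.16, below 4.53) and Krt24 (4.22, above 3.88). Replicate 6 did so for Krt80 (5.87, above 5.59) and Krt36 (3.86, below 4.14). Replicate 5 did so for Krt12 (5.87, above 5.66). In TiO2-UVR, replicate 1 stood apart for Krt34 (4.65, below 4.90) and Krt4 (3.94, above 3.65). Replicate 5 did so for Krt73 (4.81, above 4.21) and Krt33a (4.00, above 3.81). Replicate 4 did so for Krt14 (4.83, below 5.15).

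In ZnO + UVR, replicate 5 stood apart for Krt72 (4.18, below 4.57), Krt5 (3.90, below 4.51), Krt15 (4.11, below 4.44) and Krt26 (2.75, below 3.25). Replicate 1 did so for Krt75 (5.21, above 4.96). Replicate 2 did so for Krt6b (2.94, above 2.51). Replicate 3 did so for Krt27 (3.78, below 4.13). In ZnO-UVR, replicate 3 stood apart for Krt31 (5.45, above 4.92). Replicate 4 did so for Krt32 (4.14, below 4.35). In Control + UVR, replicate 1 stood apart for Krt10 (5.86, above 5.13) and Krt76 (3.84, above 3.22). Replicate 4 did so for Krt26 (3.02, below 3.27). Replicate 5 did so for Krt32 (4.62, above 4.32). Replicate 6 did so for Krt222 (4.74, above 4.27). In Control-UVR, replicate 3 stood apart for Krt26 (3.67, above 3.27). Replicate 4 did so for Krt72 (4.14, below 4.42). Replicate 6 did so for Krt84 (3.69, below 4.03).

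The 8 keratins of Organic-UVR replicate 1 were all at the high end of their group, and that array had the lowest slope of the series (0.772). None of the 4 liver keratins is among the 44. No interaction of product and UVR was called for any keratin.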

How the results depend on the processing

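Of 50 named log2 differences, 6 were called. Without the replicate number as a block the keratins called were 0 in Organic + UVR (1 with it), 1 in Organic-UVR (2), 1 in the contrast of products (3) and 0 by the F test (1). Of 41 pairs of same-numbered livers with Control-UVR, 24 had deviations correlated over 0.1 (-0.122 to 0.403, median 0.114). What livers of the same number share was not tested, and no source ties the numbers to the batches of the methods. Krt18 in Organic-UVR, Krt7 in Organic + UVR and Krt8 and Krt18 in the contrast of products were not called without the block. With array weights 7, 6, 2 and 6 keratins were called in Organic + UVR, Organic-UVR, TiO2 + UVR (0 otherwise) and by the F test, and 1 for UVR averaged over products (0 otherwise). With the array slope as a covariate they were 0, 1, 0 and 2 in Organic + UVR, Organic-UVR, the contrast of products and the F test. Quantile normalization gave 0, 1 and 0 in Organic + UVR, Organic-UVR and the F test, and 2 in the contrast of products (Krt86 and Krt2, chosen after its value was seen), the fit of the compared groups alone 0 and 0 in the first 2, and a threshold of 0.05 gave 0, 1, 1 and 0. The filter on dim transcripts gave 0 by the F test, since Krt7 is below it. Replicate numbers 1 to 3, chosen after seeing the data, gave 0 in all 4, and numbers 4 to 6 gave 0 in Organic + UVR, Organic-UVR and the F test. Leaving out 1 array at a time gave 0 to 6 in Organic + UVR, 1 to 5 in Organic-UVR, 0 to 2 in TiO2 + UVR, 2 to 8 in the contrast of products and 0 to 2 by the F test.

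No called difference changed direction. Of the others 11 did. Krt8 in ZnO + UVR (0.015) was -0.037 with array weights, -0.115 in numbers 1 to 3 and -0.148 to 0.106 with 1 array left out, and Krt18 there (0.017) was -0.022, -0.089 and -0.126 to 0.134. Krt19 there (0.033) was -0.274 in numbers 4 to 6 and -0.026 to 0.087 with 1 array left out. Krt19 in ZnO-UVR (-0.003) was 0.055 with array weights, 0.177 in numbers 1 to 3 and -0.068 to 0.058 with 1 array left out. Krt19 in Control + UVR (0.040) was -0.055 after quantile normalization, -0.008 with the slope and -0.028 to 0.103 with 1 array left out, and in Organic + UVR (-0.103) 0.000 in numbers 1 to 3. In numbers 4 to 6 Krt8 was 0.144 in Control + UVR (-0.154 otherwise) and 0.102 in TiO2-UVR (-0.282), and Krt18 was 0.271 in Control + UVR (-0.130), 0.140 in TiO2-UVR (-0.172) and 0.092 in ZnO-UVR (-0.251), with Krt18 in Control + UVR at -0.268 to 0.001 with 1 array left out. Apart from the filter, the cause was not tested.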
